A study of Mus musculus with 22 samples.

Results

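The mouse mitochondrial genome carries 37 annotated genes, and their transcripts were followed here across the constructs of a DUX structure-function study. The members were chosen by symbol: every listed gene whose GENCODE M21 symbol starts with mt- was taken, which gave 37 of the 55487 genes in each table. They comprise 13 protein-coding genes, 2 ribosomal RNA (rRNA) genes and 22 transfer RNA (tRNA) genes on chromosome M. In GRCm38, 28 lie on the plus strand and 9 on the minus strand, the latter being 8 tRNA genes and mt-Nd6.

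RNA came from mouse embryonic stem cells of a Dux-/- line, that is, cells without functional copies of Dux, whose product activates transcription of genes specific to the early cleavage-stage embryo. All cells were grown in 2iLIF medium and carried a doxycycline-inducible transgene. They were left to recover for 24 hours and then received doxycycline at 0.25 ug/mL for 12 hours, controls included. Poly(A) RNA from 500 ng of total RNA was sequenced with the Illumina TruSeq Stranded mRNA kit. The transgenes coded for mCherry, a red fluorescent protein, alone (mCherry) or fused to full-length DUX (FL) or to a derivative. The derivatives are written here as the labels name them: C3+14, C1+14, C1C3a, C1C3b, C1C3c, C12345delt14, deltC12345+14 and deltC12345delt14. The labels do not explain C1 to C5, 14, or the letters a to c. Each group had 2 replicates. Nothing in the labels says that these were separate cultures, so p-values measure only the spread between these samples, which may be technical.

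The deposited values form 2 separately scaled tables. The chimera table covers mCherry, FL, C1+14, C3+14 and the C1C3a, C1C3b and C1C3c chimeras, in 14 libraries. The deletion table covers C12345delt14, deltC12345+14, deltC12345delt14 and FL, in 8 libraries, and its FL libraries are those of the chimera table. Groups were compared only within a table. The 20 libraries held 21059953 to 40448890 reads. Duxf3, the annotated Dux gene, had 0 reads in every library and therefore checks no label. All 7 stem cell markers exceeded 3 reads in every library. Their summed level was 694.6 to 1193 reads per 1000000 reads of the library (RPM) in FL, 1042 to 1164 in C3+14 and 3386 to 3394 in mCherry. Their part in the results below was not tested. In bulk RNA, fewer cells of a type and less RNA per cell cannot be told apart. Fibroblast feeder markers summed to 1.94 to 12.1 RPM. Median reads were 0 for Postn and Dcn, 0.5 for Lum, 1.5 for Col3a1, 7.5 for Col1a2, 30 for Col1a1 and 38.5 for Thy1. The highest count was 280, for Thy1. In both C1C3b libraries all 7 feeder markers exceeded 3 reads.

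The libraries also fell into groups that the labels do not describe. In 14 libraries, called type A, 1.71% to 2.60% of reads lay in 1629 genes of high-copy sequence. In the other 6 libraries, called type B, it was 0.307% to 0.421%. Type B comprised both C3+14 libraries, both mCherry libraries, deltC12345+14 replicate 2 and deltC12345delt14 replicate 1. In the chimera table, type therefore cannot be told apart from group in any comparison with mCherry except that of C3+14. The comparisons with C1+14 involve type A libraries only.

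Mammalian mitochondrial DNA is transcribed from both strands into long precursors. The tRNAs, which sit between most of the other genes, are cut out, and this frees the messenger and ribosomal RNAs. The mitochondrial RNA polymerase POLRMT works with TFAM and TFB2M. The messengers code for subunits of respiratory complexes I, III, IV and V, whose other subunits are nuclear, and most receive a poly(A) tail after cutting. The rRNAs carry short tails and the mature tRNAs none of this kind, so a poly(A)-selected library holds what is captured of each class and not its amount in the cell.

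Sequence determines how far these genes can be counted apart. The nuclear genome holds copies of mitochondrial DNA that are annotated as genes. Below is a window of mt-Co1 (cytochrome c oxidase subunit 1), at chrM:6381-6440 on the plus strand, with the same window in copies on chromosomes 1 (chr1:24616138-24616197) and 2 (chr2:22588535-22588594), both on the minus strand. It is shown because it holds bases at which reads can be told apart. Capitals mark bases that differ from mt-Co1. All sequences are from the GENCODE M21 transcripts (GRCm38), 5′ to 3′.
mt-Co1: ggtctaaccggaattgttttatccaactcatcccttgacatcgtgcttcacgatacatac
Gm29216: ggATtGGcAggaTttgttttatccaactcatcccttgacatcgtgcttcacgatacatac
Gm13340: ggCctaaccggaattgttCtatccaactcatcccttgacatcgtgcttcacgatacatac
Gm29216 differed from mt-Co1 at 6 of the 492 bases aligned, which start at base 1054 of mt-Co1, and Gm13340 differed at 37 of 1545 bases (97.6% identity). Other copies had no difference at all over the bases aligned: Gm28661 against mt-Co2 (681 bases), Gm28437 against mt-Co3 (783), Gm10925 against mt-Atp6 (678), Gm10222 against mt-Nd4l (294) and Gm28439 against mt-Nd4 (876). Gm28438 differed from mt-Nd3 at 1 of 345 bases. These 7 genes lie together on the minus strand of chromosome 1, between 24611535 and 24616197. Of all 50-base stretches, 100% of those of mt-Co2, 99.9% of mt-Co3, 99.5% of mt-Atp6, 98.8% of mt-Nd4l and 98.0% of mt-Nd3 also occurred in a nuclear gene. The share was 62.2% for mt-Nd4, 51.1% for mt-Co1, 8.19% for mt-Nd2, 7.61% for mt-Nd5 and 1.04% for mt-Rnr2, and 0 for mt-Nd1, mt-Atp8, mt-Nd6, mt-Cytb and mt-Rnr1.

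Members also overlap one another. The last 43 bases of mt-Atp8 (chrM:7766-7969, plus strand), which codes for a small subunit of ATP synthase, are the first of mt-Atp6. They are in capitals in the sequence, since reads from them belong to both genes.
mt-Atp8: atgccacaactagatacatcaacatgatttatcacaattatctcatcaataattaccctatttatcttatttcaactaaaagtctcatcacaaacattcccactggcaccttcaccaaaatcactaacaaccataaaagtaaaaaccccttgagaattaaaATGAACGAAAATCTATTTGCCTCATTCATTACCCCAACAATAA
mt-Nd4l and mt-Nd4 share 7 bases on the same strand, and mt-Nd5 and mt-Nd6 share 14 bases on opposite strands. The authors' counting of strand and of reads that match several genes is not given in the sources used here. Reads of a minus-strand gene, whether mt-Nd6 or a tRNA gene, and of RNA antisense to it therefore cannot be told apart. Values of members with near-identical copies are also uncertain.

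The tRNA genes are short, at 59 to 75 bases. Those with the most reads were mt-Tp (proline, chrM:15356-15422) and mt-Tn (asparagine, chrM:5089-5159), both on the minus strand. They are printed because they carry the tRNA results below, with the anticodon in capitals, found as the centre of a 7-base loop between a 5-base inverted repeat.
mt-Tp: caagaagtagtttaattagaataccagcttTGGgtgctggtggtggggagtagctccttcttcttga
mt-Tn: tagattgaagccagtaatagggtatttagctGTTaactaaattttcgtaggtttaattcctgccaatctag

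Per length, the members spanned several orders of magnitude. As the median over 20 libraries in RPM per kilobase, mt-Co1 stood at 10797, mt-Co2 at 7686, mt-Co3 at 5413 and mt-Atp6 at 5297. All but the last code for subunits of complex IV, cytochrome c oxidase. mt-Cytb, the cytochrome b of complex III, was at 3171. The 7 complex I genes (NADH dehydrogenase) were lower: mt-Nd1 2547, mt-Nd4 2096, mt-Nd4l 1610, mt-Nd2 1482, mt-Nd5 1170, mt-Nd6 1115 and mt-Nd3 794. The rRNA genes were lower than every protein-coding gene on this scale, at 186 for mt-Rnr1 (12S) and 184 for mt-Rnr2 (16S). Among tRNA genes, mt-Tp reached 248, above both rRNA genes, followed by mt-Tn at 42.1 and mt-Tc (cysteine) at 28.7. mt-Tf and mt-Tg had 0 reads in all 20 libraries, and 4 tRNA genes in all had at most 3 reads in every library, the number that a count of 0 allows.

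The members together took 2.46% to 10.01% of a library's reads. The 95% Wilson interval of each share extended 0.00567 to 0.0125 percentage points to either side, which covers counting error only, since the reads carry no molecular identifiers and need not be independent molecules. The share was 9.02% and 10.01% in C3+14, the highest of all libraries. In mCherry it was 5.16% and 5.22%, and in FL 4.28% and 5.10%. Among the chimeras, C1C3a had 6.19% and 5.89%, C1C3b 5.46% and 6.17%, and C1C3c 3.54% and 3.75%. C1+14 had 3.60% and 2.46%. As means ± SD (n = 2), these are 9.51% ± 0.706 for C3+14, 6.04% ± 0.219 for C1C3a, 5.82% ± 0.508 for C1C3b, 5.19% ± 0.0426 for mCherry, 4.69% ± 0.580 for FL, 3.64% ± 0.148 for C1C3c and 3.03% ± 0.805 for C1+14. C3+14 overlapped no other group, and C1C3c and C1+14 both lay below FL, C1C3a, C1C3b and mCherry. C1C3a and C1C3b overlapped each other, and C1C3c overlapped C1+14. In the deletion table, C12345delt14 had 5.13% and 3.78%, a range that overlapped FL. deltC12345+14 had 3.03% and 3.72%, and deltC12345delt14 had 3.17% and 2.60%. Those last 2 groups overlapped each other and lay below both other groups. In each of the 2, the type B library had the higher share. With 2 replicates against 2, an exact permutation test cannot give a p below 0.333, so shares are given without a test.

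**Figure D1:**
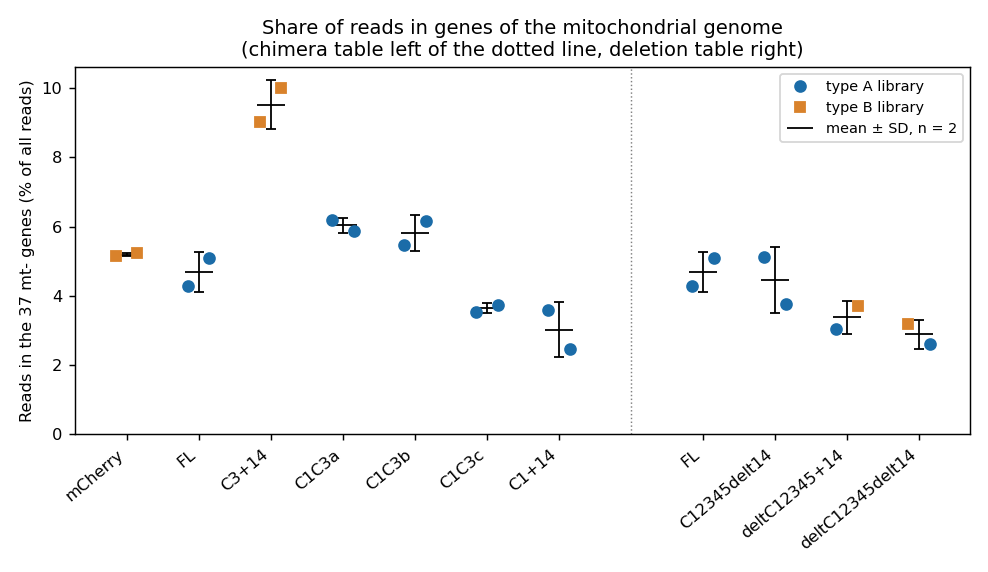
Share of all reads in the 37 mitochondrial genes (vertical axis, percent) in each library, by group and table. Circles are type A libraries and squares type B, and dashes with bars give mean ± SD (n = 2); C3+14 stands at 9.02% and 10.01%, and C1+14 replicate 2 is the lowest at 2.46%.

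The share depends on what else fills a library. On chromosome 10, 7 arrayed genes of near-identical sequence, Gm21293 among them, held 19.2% and 12.3% of reads in FL and 11.2% and 13.6% in C1C3a. They held 9.42% and 7.34% in C12345delt14, and 0% in mCherry. With these genes left out of the total, the mitochondrial share was 5.56% ± 0.367 in FL and 6.89% ± 0.114 in C1C3a, both above the 5.19% of mCherry. A further base kept all 37 members but left out every other gene with at least 50% of its 50-base stretches in other genes. On that base the share was 12.6% ± 1.05 in C3+14, 9.22% ± 0.0241 in C1C3a, 7.98% ± 0.157 in FL and 6.75% ± 0.592 in C1C3b. It was 5.78% ± 0.0554 in mCherry, 4.10% ± 0.140 in C1C3c and 3.40% ± 0.906 in C1+14. FL thus stood below mCherry by mean share of all reads and above it on both of these bases, while the order C3+14, C1C3a, then mCherry, C1C3c and C1+14 was the same on all of them.

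Protein-coding genes supplied 98.3% to 99.3% of mitochondrial reads in every library. The rRNA genes supplied 1.59% and 1.26% in FL and 1.34% and 1.11% in C1C3c. C1C3b had 0.900% and 0.911%, against 0.978% and 1.04% for C1C3a. They supplied 1.00% and 0.767% in C1+14, 0.798% and 0.863% in C3+14, and 0.754% and 0.743% in mCherry. The mCherry libraries were the lowest of the 14, and FL replicate 1 the highest. In the deletion table the rRNA share was 1.02% and 0.826% in C12345delt14, 1.00% and 1.07% in deltC12345+14, and 1.02% and 0.554% in deltC12345delt14, all below both FL libraries.

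The tRNA genes supplied 0.0328% and 0.0335% of mitochondrial reads in mCherry, the lowest of all 20 libraries, from 419 to 1168 tRNA reads per library. In the other type B pair, C3+14, the share was 0.0508% and 0.0499%. It was 0.0623% and 0.0870% in C1+14 and 0.0705% and 0.0540% in FL. Among the chimeras it was 0.0620% and 0.0558% in C1C3c, 0.0556% and 0.0542% in C1C3a, and 0.0503% and 0.0479% in C1C3b. The deletion constructs had 0.0654% and 0.0629% in C12345delt14, 0.0945% and 0.0792% in deltC12345+14, and 0.0788% and 0.107% in deltC12345delt14. The groups with low total mitochondrial shares in that table therefore had the higher tRNA shares. Minus-strand genes, that is mt-Nd6 and 8 tRNA genes, held 1.06% to 1.73% of mitochondrial reads.

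**Figure D2:**
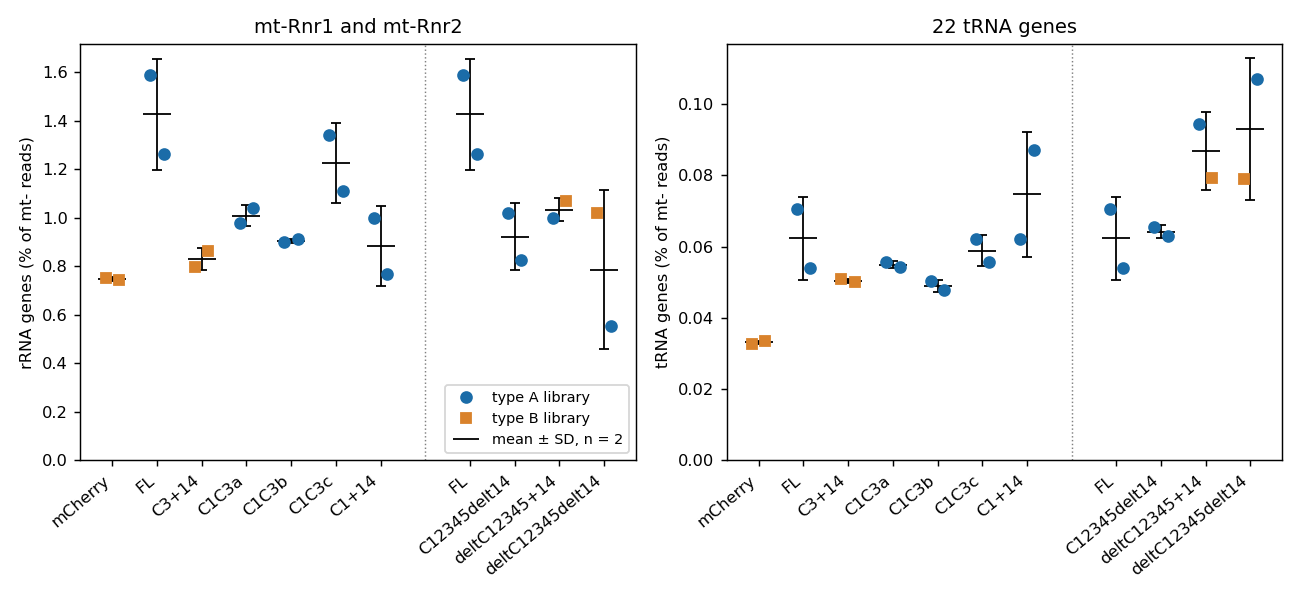
Percent of mitochondrial reads in the 2 rRNA genes and in the 22 tRNA genes (vertical axes) in each library, by group and table. Circles are type A and squares type B libraries, with mean ± SD (n = 2); mCherry is lowest for tRNA genes at 0.0328% and 0.0335%, and FL replicate 1 is highest for rRNA genes at 1.59%.

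Among the protein-coding genes, complex IV genes took the smallest part of the reads in mCherry within the chimera table. They made up 54.7% ± 0.110 of coding reads in mCherry (SD, n = 2), 58.6% ± 1.22 in C1+14, 59.9% ± 0.891 in FL and 65.0% ± 1.34 in C3+14. The chimeras had 65.8% ± 1.40 (C1C3a), 63.1% ± 1.94 (C1C3b) and 58.2% ± 0.0946 (C1C3c). Complex I genes went the other way in C3+14 (20.1%), C1C3a (20.9%) and C1C3b (21.6%) against 24.8% in mCherry, but held 25.1% in C1C3c and 25.5% in C1+14. By gene, mt-Co1 took 34.0% and 34.5% of coding reads in mCherry, below the 37.1% to 46.7% of the other 12 libraries of the chimera table. mt-Cytb took 9.95% to 10.07% in mCherry against 6.62% to 8.35%, mt-Nd1 6.73% to 6.80% against 3.998% to 6.53%, and mt-Atp8 0.693% to 0.711% against 0.288% to 0.677%. These 4 genes separated mCherry from the other 12 libraries of that table, and the other 9 overlapped. The parts share a fixed total, so the 4 are not independent of one another. This measure exists only for the coding genes, so no share over all genes stands beside the count. The C3+14 libraries, which share type B with mCherry, had 43.5% and 41.6% in mt-Co1 and 7.59% and 7.40% in mt-Cytb. In the deletion table, complex IV held 61.2% ± 0.755 in C12345delt14, 55.5% ± 2.73 in deltC12345+14 and 58.3% ± 4.23 in deltC12345delt14. The type B libraries had the lower part in both deltC12345 groups. It was 57.4% in type A and 53.6% in type B for deltC12345+14, the latter below both mCherry libraries. For deltC12345delt14 it was 61.3% and 55.3%.

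**Figure D3:**
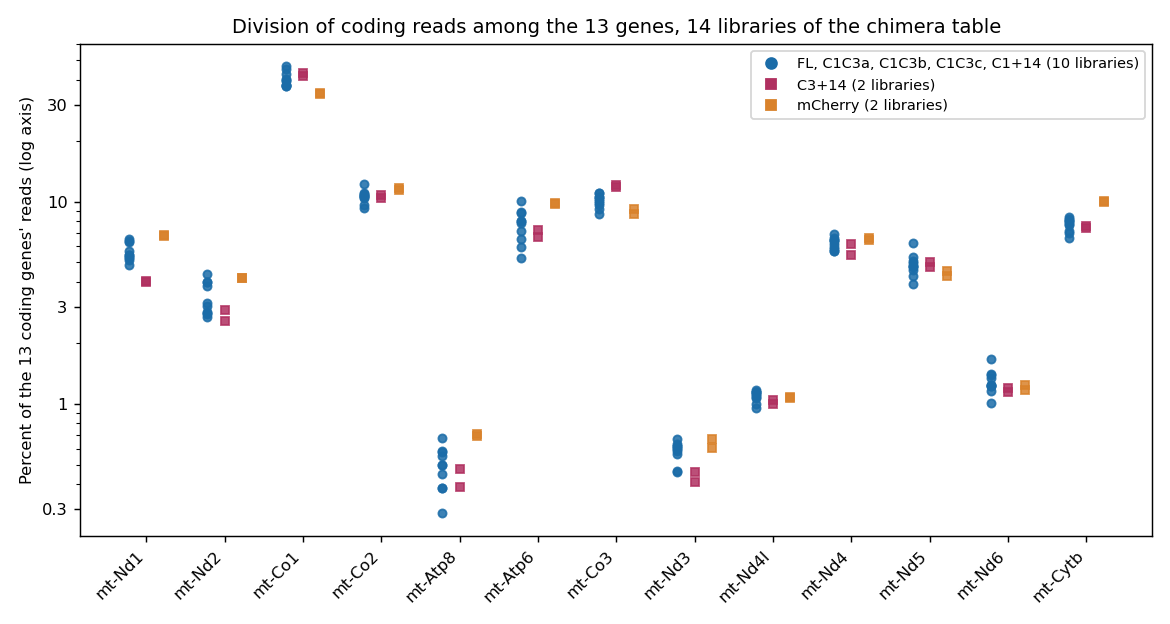
Share of protein-coding mitochondrial reads per gene (percent, log axis) in the 14 chimera table libraries. Blue points are the 10 libraries of FL, C1C3a, C1C3b, C1C3c and C1+14, magenta squares C3+14 and orange squares mCherry; mCherry lies below the others for mt-Co1 and above them for mt-Cytb, mt-Nd1 and mt-Atp8.

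Levels of single members were then compared between groups. Calling a gene required a limma p under 0.05 after Benjamini-Hochberg adjustment over all genes tested, and at least a 2-fold difference in the deposited values, which are reads divided by the library's size factor. Many genes differed between groups, and the scaling bore on every direction. Scaling by library totals instead moved the median log2 fold change over all genes. Against mCherry it moved from 0.09 to -0.87 (FL), 0.12 to -0.74 (C1C3a) and 0.23 to -0.52 (C3+14). Against C1+14 it moved from 0.06 to -1.11 (FL) and 0.13 to -0.94 (C1C3a). In the deletion table it moved from -0.08 to 1.11 in deltC12345+14 against FL and from -0.11 to 1.05 in deltC12345delt14 against FL. Both scalings are therefore given. All 13 coding and both rRNA genes were tested in each table, whereas only 10 tRNA genes passed the filter on low values. For tRNA genes no count is read as support. Counts of members without the required fold have no share over all genes at that criterion beside them. They are not read as support either.

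C3+14 had the highest levels relative to mCherry, and both groups are type B. mt-Co1 had 38843 and 41275 RPM in C3+14 against 17424 and 17907 in mCherry. mt-Co3 had 10804 and 11665 against 4705 and 4523, and mt-Cytb 6782 and 7347 against 5158 and 5157. No group overlapped the other for these genes, but the share of all genes without overlap is not given, so this is not read as support. In deposited values 11 of 13 coding genes and both rRNA genes were called higher, where 47.3% of all genes were called and 29.6% were called higher. The log2 increase (± SE) was 2.07 ± 0.18 for mt-Co3 (limma adjusted p = 3.99e-07), 1.97 ± 0.15 for mt-Co1 (adjusted p = 1.65e-07) and 1.81 ± 0.13 for mt-Nd5 (adjusted p = 8.88e-08). The exceptions, mt-Nd1 and mt-Atp8, had log2 fold changes of 0.91 and 0.94, under the fold required. By library totals all 13 coding genes still had log2 fold changes above 0 (median 0.70), and mt-Co3 (1.28), mt-Co1 (1.18) and mt-Nd5 (1.02) were called with mt-Rnr2 (1.18), where 20.4% of all genes were called higher.

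The rRNA genes rose in C3+14 as well. mt-Rnr2 (chrM:1094-2675) had 426 and 547 RPM in C3+14 against 210 and 216 in mCherry, a log2 fold change of 1.96 in deposited values (limma adjusted p = 5.87e-05). mt-Rnr1 (chrM:70-1024) had 294 and 318 against 179 and 172, with 1.59 in deposited values (adjusted p = 5.92e-06) and 0.80 by totals, where it missed the fold.

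In FL, the rRNA genes stood above mCherry while the coding genes depended on the scaling. mt-Rnr2 had 464 and 431 RPM in FL against 210 and 216, and was called by both scalings: its log2 fold change was 2.10 ± 0.29 in deposited values (limma adjusted p = 3.50e-05) and 1.07 ± 0.27 by totals (adjusted p = 0.00350), where 16.6% of all genes were called higher. mt-Rnr1 had 216 and 214 RPM against 179 and 172, and 1.33 ± 0.18 in deposited values (adjusted p = 3.21e-05) became 0.29 by totals (adjusted p = 0.141). Of the 13 coding genes, mt-Co1 (1.04, or 0.01 by totals) and mt-Co3 (1.01, or -0.03 by totals) were called higher in deposited values, where 44.2% of all genes were called and 24.5% higher. The coding median was 0.82 there with all 13 above 0, and -0.22 by totals with 1 of 13 above 0. Without the required fold, 12 coding genes had a limma adjusted p under 0.05 as higher in deposited values. By totals 4 did as lower and 0 as higher. mt-Co1 had 15938 and 19803 RPM in FL, which enclose the 17424 and 17907 of mCherry. mt-Cytb had 3512 and 4111, below mCherry on this scale, although its log2 fold change in deposited values was 0.59 (-0.44 by totals).

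C1C3a, too, differed by scaling. mt-Co1 had 28614 and 26330 RPM, above mCherry, and mt-Cytb 4061 in both libraries, below it. In deposited values mt-Co1, mt-Co3, mt-Nd4l, mt-Nd5, mt-Nd6 and both rRNA genes were called higher (46.4% of all genes were called, 27.4% higher), with a coding median of 0.84. By totals the median was -0.07 and no coding or rRNA gene was called (59% of all genes were). Without the required fold, both rRNA genes and 1 coding gene had a limma adjusted p under 0.05 as higher by totals, and 2 coding genes as lower. mt-Rnr1 had 264 and 221 RPM, and mt-Rnr2 342 and 391. In C1C3b no coding or rRNA gene was called by either scaling (44.7% of all genes were called in deposited values and 45.5% by totals). Without the required fold, 3 coding genes and 1 rRNA gene had an adjusted p under 0.05 as higher in deposited values. Its coding median was 0.13 in deposited values and 0.03 by totals. mt-Co1 had 23085 and 24399 RPM, mt-Cytb 3856 and 4903, mt-Rnr1 197 and 188, and mt-Rnr2 294 and 374.

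C1C3c and C1+14 had coding log2 fold changes against mCherry below 0 for all 13 genes by both scalings. In C1C3c, mt-Rnr1 had 177 and 127 RPM, mt-Rnr2 298 and 289, and mt-Co1 13162 and 13750, and the coding median was -0.70 in deposited values and -0.51 by totals. mt-Cytb, with 2719 and 2923 RPM, fell by 1.06 ± 0.18 (limma adjusted p = 0.000393), and mt-Atp8, with 191 and 217 against 355 and 369, fell by 1.02 ± 0.31 (adjusted p = 0.0168). Both missed the fold by totals (-0.87 and -0.83), where no coding or rRNA gene was called and 29.5% of all genes were. Without the required fold, all 13 coding genes had an adjusted p under 0.05 as lower in deposited values, and 9 did by totals. The share of all genes at that criterion is not given. In that comparison 28.8% of all genes were called and 10.5% were called lower. In C1+14, mt-Co1 had 13256 and 9850 RPM, and the coding median was -1.03, or -0.81 by totals. The genes called lower in deposited values were mt-Nd1, mt-Nd2, mt-Co2, mt-Atp8, mt-Atp6, mt-Nd3, mt-Cytb and mt-Rnr1, where 18.3% of all genes were called and 5.95% lower. mt-Atp6 fell by 1.45 ± 0.30 (adjusted p = 0.00272), mt-Atp8 by 1.37 (0.00483) and mt-Cytb by 1.37 ± 0.18 (0.000129). These 3 and mt-Nd1 were also called lower by totals, as were 3.72% of all genes. The C1+14 libraries differed, with 256 and 113 RPM of mt-Rnr2, 105 and 75.6 of mt-Rnr1, 2895 and 1872 of mt-Cytb, and 241 and 109 of mt-Atp8. Without replicate 2, 2 of the 25 members tested were called against mCherry, and without replicate 1, 15.

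Comparisons with C1+14 stay within type A and share its libraries. In FL all 13 coding and both rRNA genes were called higher than in C1+14 in deposited values (39.9% of all genes called, 21.5% higher), with a coding median of 1.82. By totals all 13 were still above 0, with a median of 0.57, but of the 15 genes only the 2 rRNA genes were called (10% of all genes were called higher). mt-Rnr2 was higher by 2.64 ± 0.29 on the log2 scale (limma adjusted p = 5.94e-06) and by 1.39 by totals, and mt-Rnr1 by 2.52 ± 0.18 (adjusted p = 1.16e-07) and 1.27. mt-Atp6 came next at 2.20 ± 0.30 (adjusted p = 3.70e-05), with 0.95 by totals. In C1C3a all 15 were called in deposited values (40.8% of all genes, 23.4% higher), and mt-Rnr1, mt-Co1, mt-Co3 and mt-Rnr2 were called by totals as well, with 1.44, 1.26, 1.21 and 1.10 (12% of all genes called higher). In C1C3b, 12 coding genes and both rRNA genes were called in deposited values (28.9% of all genes, 17.9% higher), all but mt-Nd2. mt-Co3 (1.55, or 1.24 by totals), mt-Rnr1 (1.43, or 1.12) and mt-Co1 (1.37, or 1.05) were called by both (14.2% of all genes called higher by totals). That count rests partly on C1+14 replicate 2: 14 of the 25 members tested were called with it, and 4 without it. In C1C3c no member was called (7.83% of all genes were, or 7.47% by totals). There 5 members had an unadjusted limma p under 0.05, edgeR and DESeq2 called 0 with 3 and 4 members under that p, and the coding median was 0.30, or 0.28 by totals.

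**Figure D4:**
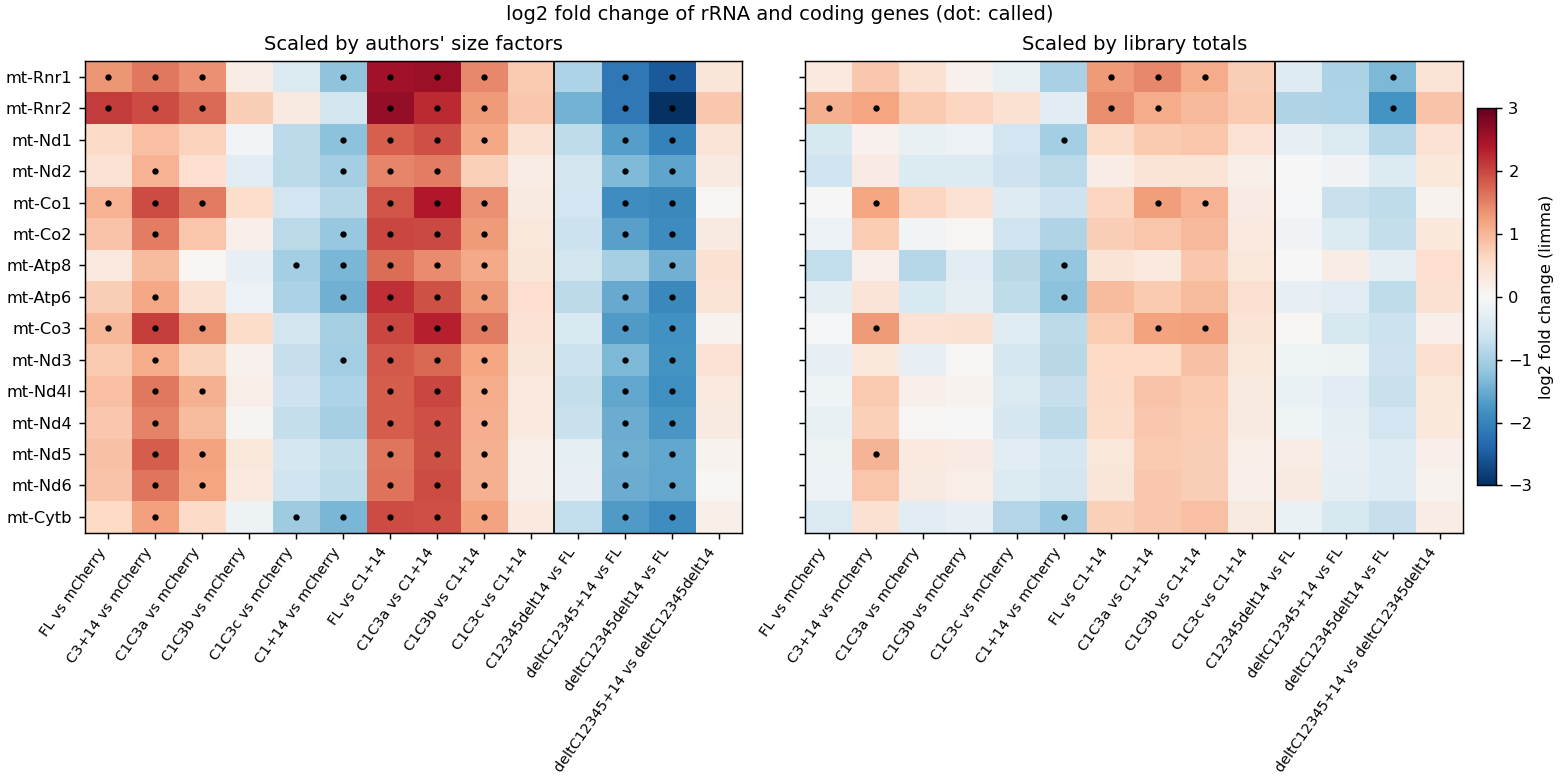
log2 fold change (limma, colour scale) of the 2 rRNA and 13 coding genes (rows) in the 14 comparisons (columns), with the deposited scaling at left and library totals at right. Dots mark called genes and the vertical line divides the tables; the coding genes of FL against mCherry change from a median of 0.82 to -0.22 between the panels, and mt-Rnr2 keeps its dot.

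In the deletion table, C12345delt14 had no member called against FL (0.958% of all genes were called, or 0% by totals). With limma 10 members had an unadjusted p under 0.05, and edgeR and DESeq2 called 0 with 6 and 12 members under that p. Its replicates differed: mt-Co1 had 19993 and 14611 RPM against 15938 and 19803 in FL, mt-Rnr1 208 and 129, mt-Rnr2 316 and 183, mt-Cytb 3743 and 2881, and mt-Atp8 241 and 189. The coding median was -0.64, or -0.11 by totals.

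Both deltC12345 constructs had lower rRNA levels than FL. mt-Rnr1 had 105 and 119 RPM in deltC12345+14 and 108 and 65.6 in deltC12345delt14, against 216 and 214 in FL. mt-Rnr2 had 198 and 279 in deltC12345+14 and 215 and 78.3 in deltC12345delt14, against 464 and 431. Neither group overlapped FL for either gene, but the share of all genes without overlap is not given, so this is not read as support. In these comparisons 38.4% and 39.1% of all genes were called in deposited values. In deltC12345+14, mt-Rnr1 fell by 2.16 ± 0.32 on the log2 scale (limma adjusted p = 0.00131) and mt-Rnr2 by 2.14 (0.00684), while by totals their log2 fold changes were -0.94 and -0.93 and were not called (58.9% of all genes were). In deltC12345delt14, mt-Rnr2 fell by 2.96 ± 0.47 (adjusted p = 0.00163) and mt-Rnr1 by 2.52 ± 0.32 (0.000629), and both were called by totals too, at -1.78 and -1.35 (10.6% of all genes called lower).

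Of the coding genes, 12 were called lower than FL in deltC12345+14 in deposited values, all but mt-Atp8 (20% of all genes called lower), and all 13 in deltC12345delt14 (20.3%). None was called by totals, although 1 and 8 coding genes had an adjusted p under 0.05 as lower without the required fold. The coding medians moved from -1.52 to -0.30 and from -1.81 to -0.64 between the scalings. mt-Atp8 in deltC12345+14 changed sign, from -0.99 to 0.23. mt-Co1 had 10423 and 12171 RPM in deltC12345+14 and 10889 and 10066 in deltC12345delt14, below both FL libraries. mt-Cytb had 2372 and 3116, and 2634 and 2086, against 3512 and 4111. With library type as a term, 17 of the 25 members tested were called in each comparison. Between deltC12345+14 and deltC12345delt14 no member was called (0% of all genes), none had an unadjusted limma p under 0.05, and edgeR and DESeq2 called 0. Both comparisons with FL share its libraries.

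mt-Nd6 is the only coding gene on the minus strand (chrM:13552-14070) and is cut from the other precursor. It had 1020 and 1185 RPM in C3+14 against 597 and 646 in mCherry, a log2 fold change of 1.61 ± 0.13 in deposited values and 0.82 by totals. C1+14 had 439 and 408 and FL 425 and 703. C1C3c had 484 and 456, C1C3b 671 and 748, and C1C3a 826 and 670. In the deletion table it had 781 and 560 in C12345delt14, 390 and 523 in deltC12345+14, and 461 and 384 in deltC12345delt14. C3+14 was above every other library, as it was for mt-Co1, mt-Co3 and mt-Cytb on the plus strand. mt-Atp8 had 345 and 469 RPM in C3+14, which enclose the 355 and 369 of mCherry, against 244 and 192.5 in FL, 176 and 223 in C1C3a, 270 and 304 in C1C3b, 212 and 304 in deltC12345+14, and 248 and 128 in deltC12345delt14.

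Single tRNA genes rose in C3+14. mt-Tp had 613 and 677 reads in C3+14 against 382 and 302 in mCherry, which is 29.1 and 30.7 against 12.2 and 12.6 RPM. This is a log2 fold change of 2.05 ± 0.22 in deposited values (limma adjusted p = 3.37e-06) and 1.26 by totals. mt-Tn had 163 and 221 reads against 55 and 37, with 3.17 ± 0.37 (adjusted p = 7.58e-06) and 2.39 by totals. mt-Tc had 76 and 98 against 33 and 32, with 2.49 (adjusted p = 2.79e-05) and 1.72. For none of the 3 genes did the C3+14 and mCherry libraries overlap, but no share of all genes without overlap is given beside this. The 3 genes are annotated on the minus strand. Since the use of strand in counting is not given, reads of plus-strand precursors across them cannot be told apart from their own. Across the other groups mt-Tp had 755 and 508 reads in FL, 283 and 337 in C1+14, 287 in each C1C3c library, 448 and 393 in C1C3b, 726 and 551 in C1C3a, 805 and 594 in C12345delt14, 538 and 584 in deltC12345+14, and 439 and 511 in deltC12345delt14. In RPM it was 23.5 and 16.2 in FL, 22.3 and 18.6 in C1C3a, 11.8 in both C1+14 libraries, and 16.1 and 17.7 in deltC12345delt14.

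Low counts limit the remaining tRNA genes. mt-Tw (tryptophan) had 1 and 0 reads in mCherry, against 13 in each C1+14 library and 12 and 14 in FL. It had 6 and 7 in C3+14, 11 and 10 in C1C3c, 4 and 14 in C1C3b, and 5 and 19 in C1C3a. mt-Tl2 (leucine) had 3 and 1 in mCherry and 11 and 22 in FL. Their folds depend on the value of 1 added before taking logs and are not given. mt-Th (histidine) had 7 and 14 reads in mCherry, 23 and 42 in FL, 47 in each C1C3a library, 44 and 33 in C1C3c, and 37 and 22 in C1+14. Its log2 fold change in FL was 2.30 ± 0.50 (limma adjusted p = 0.0013), or 1.34 by totals. mt-Tw, mt-Tl2 and mt-Th lie on the plus strand.

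Nuclear genes that serve these members were examined from lists. Of 43 nuclear genes for the expression and upkeep of mitochondrial DNA, 2 were called higher and 10 lower in FL than in mCherry in deposited values, with a median of -0.40 against 0.09 over all genes, of which 19.6% were called lower. By totals it was 0 and 28, where 42.8% of all genes were called lower. Of the list, 3 were called higher and 7 lower in C3+14 (all genes: 29.6% and 17.7%), and 1 higher and 13 lower in C1C3b (27.6% and 17.1%). Mgme1, an exonuclease of mitochondrial DNA, had 386 ± 13.2 normalised reads in FL and 224 ± 3.95 in C3+14 against 1114 ± 28.8 in mCherry (SD, n = 2). It fell by 1.53 in FL (limma adjusted p = 1.44e-06) and by 2.31 in C3+14 (adjusted p = 2.63e-08), and by 2.56 and 3.09 by totals. Twnk, the replicative helicase of mitochondria, fell by 1.53 in C3+14 and by 1.91 in C1C3b. Tfb2m, the transcription factor, fell by 1.55 in FL, 1.48 in C3+14, 1.47 in C1C3a and 1.20 in C1+14 in deposited values. In C1+14, 2 of the 43 were called lower in deposited values (5.95% of all genes) and 0 by totals (3.72%). Mgme1, Twnk and Tfb2m were named for the size of their change, and the 3 of the list called higher in C3+14 are not named. Any relation between the list and the transcripts of the mitochondrial genome was not tested.

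Nuclear subunits of the same respiratory complexes depended on the scaling in FL. Of 73 tested, 17 were called higher and 0 lower than in mCherry in deposited values (median 0.82), which is a share close to the 24.5% of all genes called higher. By totals 0 were higher and 3 lower (median -0.22), where 16.6% of all genes were called higher and 42.8% lower. Ndufb8, a complex I subunit, rose by 1.49 in deposited values and by 0.46 by totals. In C3+14, 10 were higher and 1 lower (median 0.60), where 29.6% of all genes were called higher, or 0 and 4 by totals (median -0.19, with 34.2% of all genes called lower), so their median changed sign while that of the mitochondrial coding genes stayed above 0 (1.49 and 0.70). Against C1+14, FL had 40 of the 73 higher and 0 lower (median 1.02), where 21.5% of all genes were called higher, or 0 and 1 by totals (median -0.23, with 48.5% of all genes called lower), where the mitochondrial coding median remained at 0.57. Of 77 genes for mitochondrial ribosomal proteins, 4 were higher and 2 lower in FL than in mCherry, and 6 higher and 7 lower in C3+14. Over all genes 24.5% were called higher and 19.6% lower in FL, and 29.6% and 17.7% in C3+14, so each of these counts was a smaller share than over all genes. By totals 0 were higher and 19 lower in FL, where 16.6% and 42.8% of all genes were. In C3+14 by totals, 1 was higher and 24 lower, where 20.4% and 34.2% of all genes were. Mrpl32, the one called higher in C3+14 by both scalings, rose by 2.10, or 1.32 by totals. In deltC12345+14 and deltC12345delt14 against FL, 42 and 34 of the 73 respiratory subunits were called lower and 0 higher in deposited values (20% and 20.3% of all genes called lower), against 0 lower and 1 higher in each by totals, where 49% and 47.5% of all genes were called higher.

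Reads counted for the nuclear copies tracked those counted for the members. The 7 copies on chromosome 1 held 1.09% to 4.97% of a library's reads. Gm28661 had 1.00 to 1.02 times the reads of mt-Co2 in every library, for instance 196787 against 196543 in C3+14 replicate 1 and 94487 against 94473 in deltC12345delt14 replicate 1. The ratio was 1.00 to 1.03 for Gm28437 to mt-Co3, 1.00 to 1.04 for Gm10222 to mt-Nd4l, 1.02 to 1.15 for Gm28438 to mt-Nd3, 1.41 to 1.52 for Gm10925 to mt-Atp6, 0.532 to 0.567 for Gm28439 to mt-Nd4 and 0.261 to 0.289 for Gm29216 to mt-Co1. The copies of mt-Co2, mt-Co3 and mt-Nd4l, which match those genes over nearly their whole length, carried about as many reads as the member. Whether 1 read was counted in both genes or assigned to 1 of them cannot be told from the values, and the mitochondrial shares above count only what was assigned to members.

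Of the 3 copies on chromosome 2, Gm13340 separated the library types. Gm13340, whose window above differs from mt-Co1 at 2 bases, had 5389 to 20770 reads in the 14 type A libraries and 942 to 2034 in the 6 type B libraries. Relative to mt-Co1 this was 0.0184 to 0.0223 in type A and 0.00213 to 0.00521 in type B, with no overlap. The split fell within groups too: deltC12345+14 had 0.0202 in its type A library and 0.00521 in its type B library, and deltC12345delt14 0.0186 and 0.00516. The other 2 copies on chromosome 2 overlapped between types. Relative to mt-Co2, Gm13341 stood at 0.0135 to 0.0194 in type A and 0.00447 to 0.0215 in type B, and within both deltC12345 groups it was higher in the type B library. Gm13339 relative to mt-Nd2 stood at 0.00252 to 0.00814 in type A and 0.000142 to 0.00514 in type B. Of the copies elsewhere that share sequence with mt-Nd5, Gm4076 on chromosome 13 had 46 to 284 reads in type A libraries and 0 to 6 in type B, and Gm11407 on chromosome 4 had 39 to 150 and 2 to 4.

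**Figure D5:**
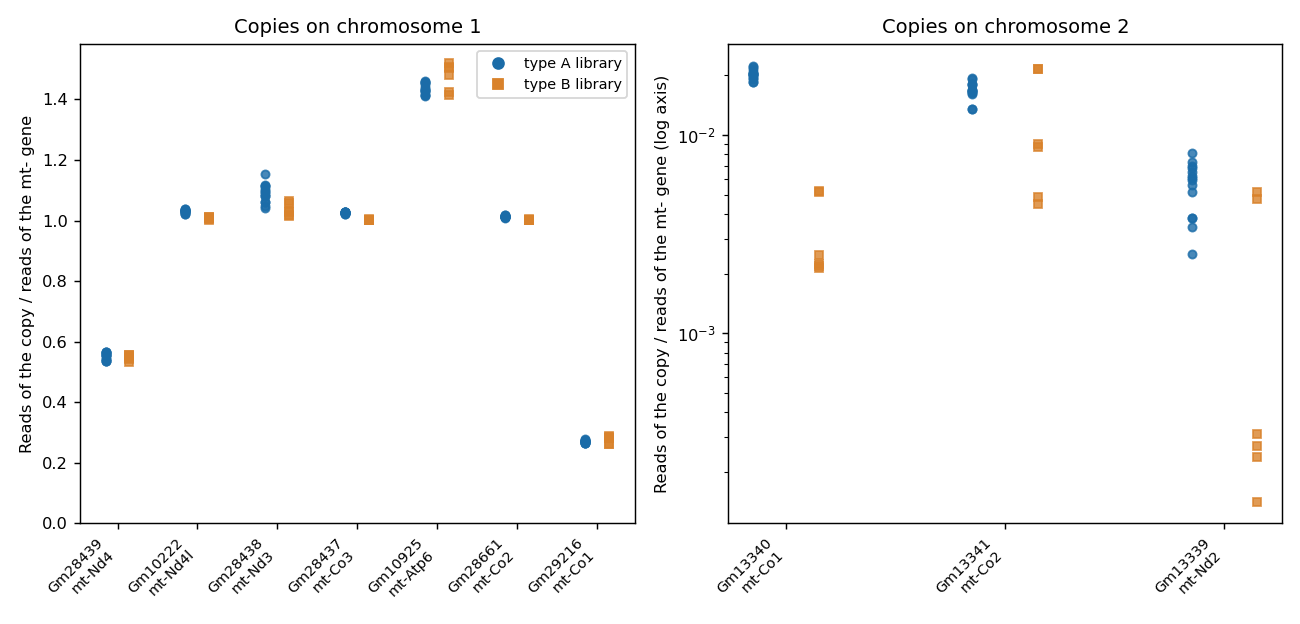
Reads of nuclear copies divided by reads of the mitochondrial gene each one copies (vertical axes), in each library. The left panel shows the 7 copies on chromosome 1 and the right panel 3 copies on chromosome 2 (log axis); circles are type A and squares type B, and Gm13340 stands at 0.0184 to 0.0223 in type A against 0.00213 to 0.00521 in type B.

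Members with and without copies were set side by side. In C3+14 against mCherry the median log2 fold change in deposited values was 1.54 over the 5 coding genes with more than 90% of their 50-base stretches in nuclear genes, and 1.09 over the 4 coding genes with none. In FL against C1+14 the medians were 1.99 and 1.73, in deltC12345+14 against FL -1.55 and -1.57, and in deltC12345delt14 against FL -1.84 and -1.71. In C1C3b against mCherry, where no coding gene was called, they lay on either side of 0, at 0.15 and -0.11.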

How the data were processed

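Per the file headers and the values, the authors deposited a signal: each gene's reads divided by the library's size factor, so that 100% of 1220714 values were whole reads within 0.001 reads. The submitters' processing notes name mm10, Trim Galore 0.5.0, FastQC and DESeq2. The aligner, the counter and the use of strand are not given in the sources used here. C3delt14 was not analysed here. Of 55487 gene identifiers, 99.5% had a GENCODE M21 symbol.

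Tests covered the 21584 genes of the chimera table and the 19833 of the deletion table that reached a value of 10 in 2 or more libraries. The test was limma 3.58.1 (R 4.3.3, lmFit and eBayes with a trend) on log2(value + 1), a scale on which changes of low genes come out too small. The spread was estimated over all groups within each table. Calls needed a Benjamini-Hochberg adjusted p under 0.05 and a log2 fold change of at least 1. Reads recovered from the values gave library totals, shares and alternative count tests with edgeR 4.0.16 and DESeq2 1.42.0. On simulated counts (200 of 21584 genes changed, FL against mCherry), 53% of 2-fold and 100% of 4-fold changes were called. A further 12 unchanged genes were called as well. The simulation gave every gene the same relative spread and changed only genes with a mean of at least 50, so recovery in these data may be lower.

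Genes of high-copy sequence have at least 50% of their 50-base stretches in other genes, and at least 50% of all their stretches in at least 20 genes. Both were judged from a sample of the stretches. Values in every library were given for mt-Rnr1, mt-Rnr2, mt-Co1, mt-Cytb, mt-Nd6, mt-Atp8 and mt-Tp, and the 3 members with the largest change among those called in a comparison could be named, tRNA genes of few reads aside. From each list of nuclear genes, at most 3 with the largest change, a mean of at least 50 and no overlap could be named, and not all are. Others were named after their values were seen. The members and lists were chosen with earlier results of these data known. Replicate numbers did not pair the samples. Replicates differed beyond sampling noise, so all were kept.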

Additional observations from a re-analysis of the deposited data

How the results depend on the processing

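Counts here are of the 25 members tested in each table. They include tRNA genes, for which no count is read as support. Where no share over all genes stands beside them, they show only how far the calls depend on the setting. By library totals, 4 were called in FL against mCherry (12 in deposited values), 11 in C3+14 (21), 6 in C1C3a (16), 2 in FL against C1+14 (19), 4 in C1C3a against C1+14 (20), 3 in C1C3b against C1+14 (14), 2 in deltC12345+14 against FL (17) and 3 in deltC12345delt14 against FL (19). In the comparisons with mCherry and C1+14 just given, all these calls were higher by both scalings. Over all genes by totals, 16.6% were called higher in FL and 20.4% in C3+14 against mCherry, and 59% in either direction in C1C3a. Against C1+14, 10%, 12% and 14.2% of all genes were called higher in FL, C1C3a and C1C3b. Against FL, 49% were called higher in deltC12345+14, and 47.5% higher and 10.6% lower in deltC12345delt14. In deltC12345+14 the 2 calls by totals, mt-Tr and mt-Ts2, were higher than FL while the 17 were lower, and in deltC12345delt14 mt-Ts2 was higher and both rRNA genes lower, while the 19 were lower. With no minimum fold, 22, 12, 16 and 16 were called in FL, C1C3b, C1C3c and C1+14 against mCherry, and 1 in C1C3c against C1+14. With 8 added before logs, 2 and 3 were called in C1C3b and C1C3c against mCherry, and with no filter 4 in C1C3b. edgeR called 8 in C1C3b against C1+14. Among the 160 calls of members over all comparisons, 3 changed sign, all by library totals: mt-Co3 in FL against mCherry (-0.026), and mt-Tn (-0.062) and mt-Tc (-0.13) in FL against C1+14.

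Leaving out each library in turn gave 10 to 12 calls for FL, 17 to 21 for C3+14, 13 to 17 for C1C3a, 2 to 4 for C1C3b (7 with all libraries), 3 for C1C3c (5) and 2 to 15 for C1+14 (10) against mCherry, so that the C1C3b and C1C3c counts dropped whichever library of the groups compared was left out. It gave 17 to 18, 17 to 20, 4 to 15 and 0 to 3 for FL, C1C3a, C1C3b and C1C3c against C1+14, and 0, 13 to 17, 14 to 18 and 0 in the deletion table. For C1C3c against C1+14, 3 were called without C1+14 replicate 1 and 1 without C1C3c replicate 2. The shares then ran between the values of the replicates.

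The mitochondrial share without the chromosome 10 array was 5.56% in FL and 6.89% in C1C3a. With all members kept and other genes of shared sequence left out, it was 5.78% in mCherry, 7.98% in FL, 12.6% in C3+14 and 6.23% in C12345delt14. It was 4.10% in C1C3c, 6.75% in C1C3b and 9.22% in C1C3a on that base. Without the 7 copies in the total it was 5.33% in mCherry.

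Samples of the same replicate number did not deviate together (correlations of -0.101 to 0.0501 for the chimera table, and of -0.574 to 0.135 for the deletion table). With a replicate block the counts were 12, 20, 16, 5, 6 and 11 against mCherry, 19, 20, 14 and 0 against C1+14, and 0, 16, 18 and 0 in the deletion table. A term for library type, chosen after seeing the data, gave 0, 17, 17 and 0 in the deletion table. Of the 160 calls, 110 more were lost by library totals, 22 with edgeR and 6 with DESeq2. Depth limits the tRNA genes, at 419 to 1168 reads per library.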
